A study of Mus musculus with 6 samples.

Results

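Mammals carry 6 conventional actin genes, and all 6 were read from the deposited table of mouse heart transcripts by their symbols (Acta1, Actc1, Acta2, Actg2, Actb and Actg1), out of 24525 gene rows. Values are in TPM (transcript abundance per length, scaled to a common total), so levels of different actins can be set side by side. Of the 6 libraries, 3 were labelled DKO (replicates 7, 8 and 9) and 3 WT (replicates 4, 5 and 6), from hearts of mice aged 3 to 6 months. The labels give the DKO genotype as Mbnl1-/-, Mbnl2cond/cond and Myh6-Cre+/-, so Mbnl1 is null in every cell while Mbnl2 is removed where the cardiomyocyte promoter Myh6 drives Cre. For WT they give the name alone, with no strain, sex or Cre status. MBNL proteins are splicing regulators that expanded CUG repeats sequester in myotonic dystrophy, and the comparison asks what changes in the heart when both are lost. Whole heart tissue was used, so the values mix cardiomyocytes with vessels, fibroblasts and other cells, and more cells of a type cannot be told apart from more RNA per cell.

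Actin is the globular protein that polymerises into thin filaments in muscle and into the cytoskeleton of all cells. Cardiac α-actin (Actc1) and skeletal α-actin (Acta1) are co-expressed in sarcomeres, and Acta1 is raised in the fetal rodent heart and often again under pressure load. Smooth muscle α-actin (Acta2) marks vascular smooth muscle, activated fibroblasts and the embryonic heart tube, smooth muscle γ-actin (Actg2) marks visceral smooth muscle, and cytoplasmic β-actin (Actb) and γ-actin (Actg1) are present in nearly all cells.

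The proteins differ mainly at the amino terminus, and the genes differ there and at silent positions throughout. The first 60 coding bases of each gene are shown because they hold that variable stretch. Each lies on the minus strand of GRCm38 and is printed 5′ to 3′, with bases that differ from the aligned Actc1 base in capitals. Alignment gaps are not shown, so Actg2, Actb and Actg1, which are shorter, do not line up with Actc1 base by base.
Actc1: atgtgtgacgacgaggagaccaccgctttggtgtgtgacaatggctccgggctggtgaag
Acta1: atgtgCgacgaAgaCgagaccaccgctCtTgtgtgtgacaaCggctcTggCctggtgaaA
Acta2: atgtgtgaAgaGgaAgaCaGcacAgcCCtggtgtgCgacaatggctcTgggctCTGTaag
Actg2: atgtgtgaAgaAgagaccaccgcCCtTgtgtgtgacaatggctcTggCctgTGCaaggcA
Actb: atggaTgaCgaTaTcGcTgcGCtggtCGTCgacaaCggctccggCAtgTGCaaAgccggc
Actg1: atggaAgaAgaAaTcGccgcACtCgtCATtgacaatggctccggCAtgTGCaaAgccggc

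These stretches, from GENCODE M21 transcripts, lie at chr2:114051972-114052031 (Actc1), chr8:123893638-123893697 (Acta1), chr19:34252494-34252553 (Acta2), chr6:83527382-83527441 (Actg2), chr5:142905627-142905686 (Actb) and chr11:120348032-120348091 (Actg1), all within the first coding exon. Acta1 differed from Actc1 at 9 of the 60 bases, Actg2 at 11, Acta2 at 14, Actg1 at 17 and Actb at 19. The coding sequence has 1131 bases in Actc1, Acta1 and Acta2, 1128 in Actg2 and 1125 in Actb and Actg1. Bases that the shorter genes lack are not counted, so these counts do not rank the genes by closeness to Actc1. Over the whole coding sequence, identity was 86.3% between Acta1 and Actc1, 88.6% between Actb and Actg1 and 82.6% between Acta2 and Actc1.

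That similarity bears on how reads are divided. Of the 31-base words in the Acta1 transcript, 95.6% occurred in transcripts of no other annotated gene and 0 were shared with Actc1, Acta2 or Actg2. The same share was 99.2% for Actc1, 98.5% for Acta2 and 98.5% for Actg2. It was 64.9% for Actb and 42.9% for Actg1, with 0% for the Actg1 coding sequence. Of the 34 other annotated genes that share words with Actg1, 4 have a row in the TPM table. Over words as long as a read (75 bases), Acta1 was 99.6% and Acta2 100% unique, against 45.5% for Actg1. Nearly all words of the muscle actins were thus their own, while which copies of Actg1 the authors' index held is not given in the sources used here.

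The libraries held between 14084 and 14623 genes at 1 TPM or more, and Myh6, the main myosin of the adult mouse ventricle, lay between 10237 and 12848 TPM in all 6. Mbnl1 had 102 to 108 TPM in DKO libraries and 145 to 161 TPM in WT libraries. Mbnl2 was higher in DKO libraries, at 227 to 245 TPM against 149 to 189 TPM in WT libraries, which goes against the genotype. Gene-level TPM cannot show whether an exon is missing, so every direction here rests on the labels. DKO 7 is DKO in its title and source but WT in its genotype tag. Its Mbnl1 (102 TPM) and Mbnl2 (227 TPM) lay nearer to DKO 8 and 9 than to any WT library. So did the myosin gene Myh7, at 1615 TPM, against 44.6 to 235 TPM in WT libraries. Over the genes tested, its correlation on log2(TPM + 1) was 0.951 with DKO 8 and 0.955 with DKO 9. With the WT libraries it was 0.923 to 0.939. Xist was at 152 TPM in DKO 7 and 174 TPM in DKO 8, while DKO 9 and the 3 WT libraries had Y-linked transcripts at 163 to 179 TPM, so sex and genotype were partly confounded. TPM keeps no read counts, and the depth of each library is therefore unknown.

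Among the muscle actins, Acta1 fell and Acta2 rose in the libraries labelled DKO, while the dominant Actc1 did not pass the test. Acta1 was 4.16 times as abundant in WT as in DKO hearts, and Acta2 was 3.42 times as abundant in DKO as in WT hearts. Of the 6 actins, all passed the filter of 1 TPM in at least 3 libraries, 1 was called higher, 1 lower and 4 were not called. Of 14541 genes tested across the table, 10.7% were called, 6.51% higher and 4.22% lower (limma, Benjamini-Hochberg (BH) adjusted p under 0.05). With 6 members, 2 calls are too few to read against that background.

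**Figure D1:**
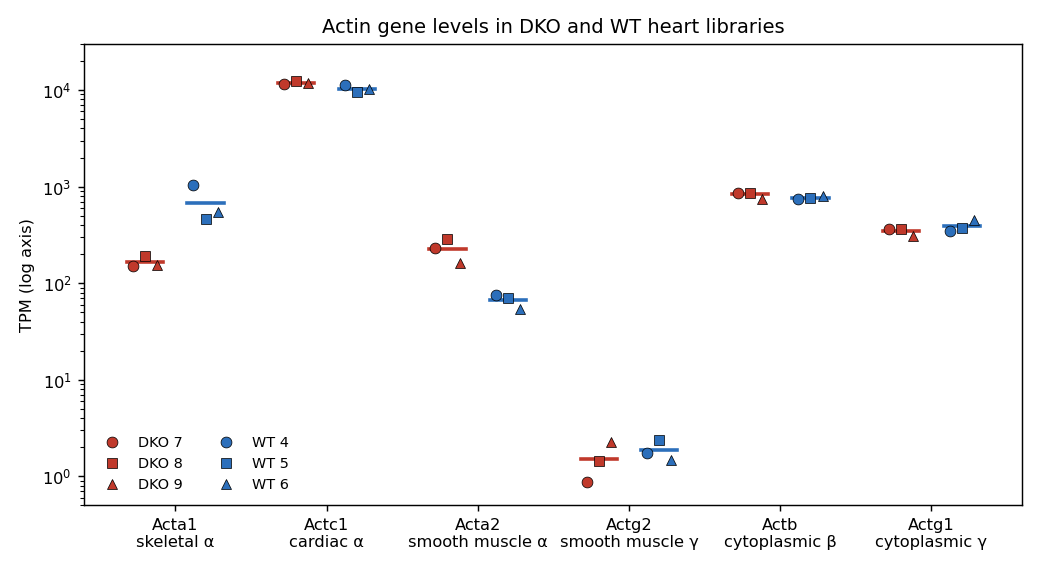
TPM of each actin gene (log axis) in every library, DKO libraries (red) left of WT libraries (blue), with a bar at each group mean. The 3 DKO points of Acta1 (150 to 189 TPM) lie below the 3 WT points (464 to 1035 TPM), the 3 DKO points of Acta2 (163 to 289 TPM) lie above the WT points (54.2 to 75.8 TPM), and Actb and Actg1 overlap.

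Actc1, the main actin of the adult heart (chromosome 2, 114047282 to 114052875), was the 10th most abundant of the 24525 rows by its mean over the 6 libraries. It had 11586, 12520 and 11813 TPM in DKO 7, 8 and 9, against 11189, 9572 and 10335 TPM in WT 4, 5 and 6. The groups did not overlap, but the nearest libraries of each lay close together. On the log2(TPM + 1) scale the difference, DKO minus WT, was 0.21 (SE 0.09; 95% interval 0.0046 to 0.42; limma, BH adjusted p = 0.177). Groups that do not overlap were common in the table, at 33.0% of genes tested, and held for 3 of the 6 actins (Acta1, Actc1 and Acta2).

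Acta1, the skeletal α-actin (chromosome 8, 123891758 to 123894775), had 150, 189 and 153 TPM in DKO 7, 8 and 9, against 1035, 464 and 547 TPM in WT 4, 5 and 6. Every DKO library lay below every WT library, and WT 4 stood well above the other two. The means were 164 ± 21.7 TPM in DKO and 682 ± 308 TPM in WT (SD, n = 3 each). On the log2(TPM + 1) scale Acta1 fell by 1.97 (SE 0.29; 95% interval -2.65 to -1.29; limma, BH adjusted p = 0.0102). Without WT 4, the ratio of WT to DKO was 3.08 and the call held (limma, BH adjusted p = 0.00685). With a term for Y-linked transcripts, the DKO difference rests on DKO 9 against WT, since DKO 7 and 8 have almost none. The call was lost with a term for Y-linked transcripts (log2 difference -2.06; limma, BH adjusted p = 0.108) and with DKO 7 counted as WT (-1.39; 0.516). In the whole table these settings left 92 genes and 1 gene called, against 1560, so most calls of other genes given here are lost under them too.

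WT 4 also stood apart in other genes, named here after their values were seen. The atrial light chain gene Myl7 had 82.9, 172 and 164 TPM in DKO 7, 8 and 9, against 932, 39.4 and 320 TPM in WT 4, 5 and 6. Its atrial partner Myl4 had 105, 120 and 161 TPM in DKO, against 874, 67.8 and 295 TPM in WT. The natriuretic peptide gene Nppa, also atrial, had 2188, 3855 and 3789 TPM in DKO, against 4216, 242 and 957 TPM in WT. All 3 ranked the WT libraries as Acta1 did, with WT 4 highest and WT 5 lowest, and Nppa alone was high in DKO.

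The early-response genes Fos and Egr1 gave the same WT order. Fos had 4.36, 5.23 and 1.17 TPM in DKO 7, 8 and 9, against 44.1, 3.56 and 6.46 TPM in WT 4, 5 and 6, and Egr1 had 11.3 to 15.4 TPM in DKO, against 91.0, 12.3 and 30.8 TPM in WT. Fast skeletal troponin Tnnt3 had 1.13 to 1.51 TPM in DKO, against 5.50, 0 and 0.813 TPM in WT 4, 5 and 6. Other skeletal filament genes differed in this. Myh4 had 1.70, 0 and 0.0569 TPM in WT 4, 5 and 6 and was at 0 in DKO. Mylpf was highest in DKO 7 (7.18 TPM), and Tnnt1 had its highest WT value in WT 6 (19.4 TPM). In WT 5, Myl7, Myl4, Nppa and Tnnt3 lay below every DKO library and Fos and Egr1 within the DKO range, while Acta1 was at 464 TPM, above every DKO library. Their part in the size of the Acta1 difference was not tested.

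Acta2, the smooth muscle α-actin (chromosome 19, 34240336 to 34255585), had 231, 289 and 163 TPM in DKO 7, 8 and 9, against 75.8, 69.6 and 54.2 TPM in WT 4, 5 and 6. All DKO libraries lay above all WT libraries, and DKO 9, the DKO library with Y-linked transcripts, was the lowest of the 3. The means were 228 ± 63.3 TPM in DKO and 66.5 ± 11.1 TPM in WT (SD, n = 3 each), a log2 difference of 1.73 (SE 0.22; 95% interval 1.21 to 2.26; limma, BH adjusted p = 0.00726). The call was lost with a term for Y-linked transcripts (1.29; limma, BH adjusted p = 0.0728) and with DKO 7 counted as WT (1.26; 0.507).

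Actg2, the visceral smooth muscle γ-actin (chromosome 6, 83512909 to 83536251), was near the detection filter. It had 0.875, 1.45 and 2.25 TPM in DKO 7, 8 and 9, against 1.73, 2.38 and 1.46 TPM in WT 4, 5 and 6. The groups overlapped, and the log2 difference was -0.20 (95% interval -0.83 to 0.43; limma, BH adjusted p = 0.684). Of the 2 smooth muscle actins, Acta2 therefore carried nearly all of the summed level, which was 229 ± 62.9 TPM in DKO and 68.4 ± 11.4 TPM in WT (SD, n = 3 each).

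The cytoplasmic actins overlapped between the groups. Actb (chromosome 5, 142903115 to 142907976), often used as a loading control, had 867, 869 and 751 TPM in DKO 7, 8 and 9, against 738, 754 and 796 TPM in WT 4, 5 and 6. DKO 9 lay within the WT range and the other DKO libraries above it, and the log2 difference was 0.12 (95% interval -0.06 to 0.30; limma, BH adjusted p = 0.384). Actg1 (chromosome 11, 120345687 to 120348495) had 367, 363 and 307 TPM in DKO 7, 8 and 9, against 347, 370 and 448 TPM in WT 4, 5 and 6. Its log2 difference was -0.17 (95% interval -0.44 to 0.11; limma, BH adjusted p = 0.418). Both intervals exclude a change of the size seen for Acta1 or Acta2.

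**Figure D2:**
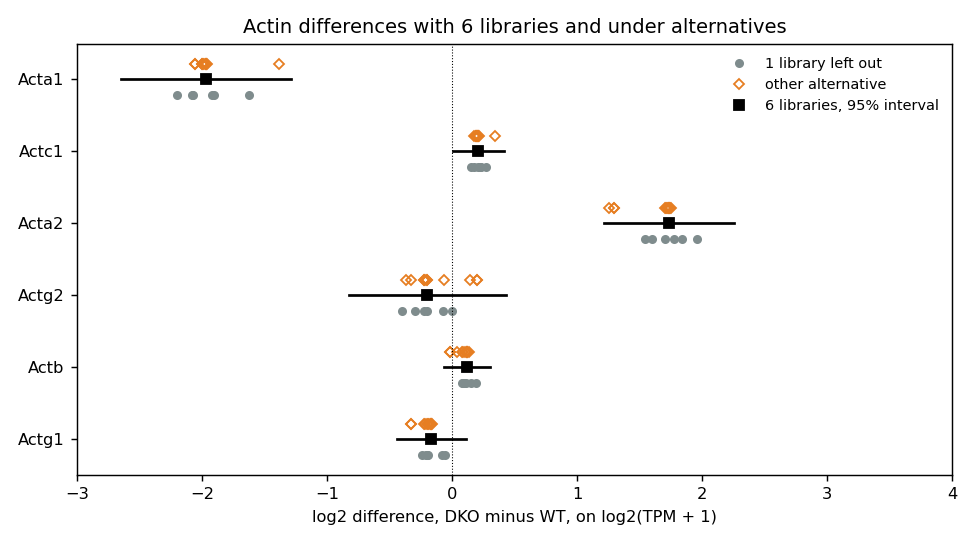
Log2 difference, DKO minus WT, on log2(TPM + 1) for each actin with all 6 libraries (black, with the 95% interval), with 1 library left out (grey) and under other alternatives (orange). Acta1 stayed below 0 (-2.20 to -1.39) and Acta2 above 0 (1.26 to 1.96) throughout, while Actb and Actg2 reached both sides of 0.

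The order of the isoforms changed below Actc1. In DKO hearts the mean levels ran Actc1, Actb, Actg1, Acta2, Acta1 and Actg2, and in WT hearts Actc1, Actb, Acta1, Actg1, Acta2 and Actg2. Acta2 exceeded Acta1 within each of the 3 DKO libraries, and Acta1 exceeded Acta2 within each of the 3 WT libraries. Some neighbours in these orders were not separated by their spread. In DKO the ranges of Acta2 (163 to 289 TPM) and Acta1 (150 to 189 TPM) overlapped, and in WT those of Actb (738 to 796 TPM) and Acta1 (464 to 1035 TPM) overlapped.

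As a share of the summed actin TPM, the heart pool remained mostly Actc1 in both groups. The sum itself was 13202, 14232 and 13189 TPM in DKO 7, 8 and 9, against 13387, 11233 and 12183 TPM in WT 4, 5 and 6, and the groups overlapped through WT 4 alone (exact two-sided permutation test, p = 0.3). The difference, DKO minus WT, was 1273 TPM with all libraries, 1833 TPM without WT 4 and 756 TPM without WT 5. Actc1 made up 87.8%, 88.0% and 89.6% of it in DKO 7, 8 and 9, against 83.6%, 85.2% and 84.8% in WT 4, 5 and 6. Acta1 gave 1.14%, 1.33% and 1.16% in DKO and 7.73%, 4.13% and 4.49% in WT. Acta2 gave 1.75%, 2.03% and 1.23% in DKO and 0.566%, 0.619% and 0.445% in WT. For these 3 shares the groups did not overlap, and the exact two-sided permutation test gave p = 0.1 for each, the smallest value that 3 against 3 libraries allow.

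The mean share of Actc1 was 88.4 ± 0.986% in DKO and 84.5 ± 0.856% in WT, a gain of 3.89 percentage points that nearly matched the Acta1 loss of 4.24 points (1.21 ± 0.104% in DKO, 5.45 ± 1.98% in WT; SD, n = 3 each). Shares sum to a fixed total, so these differences are not separate results. Actb held 6.12 ± 0.435% in DKO and 6.25 ± 0.647% in WT (SD, n = 3 each; exact permutation p = 0.9), and Actg1 2.55 ± 0.227% in DKO and 3.19 ± 0.551% in WT (exact permutation p = 0.2). Actg2 stayed at or below 0.0212% in every library.

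Counting the sarcomeric pair alone, Acta1 made up 1.28%, 1.49% and 1.28% in DKO 7, 8 and 9, against 8.47%, 4.63% and 5.03% in WT 4, 5 and 6. The ratio of Acta1 to Actc1 in DKO was 0.220 of that in WT, a log2 difference of -2.18 (exact two-sided permutation p = 0.1). Because both genes are read in the same library, a common scaling factor cannot move this ratio. The ratio of Acta2 to Actb in DKO was 3.10 times that in WT, a log2 difference of 1.63 (exact two-sided permutation p = 0.1). Without Actc1 in the sum, Acta1 took 10.5 ± 1.04% of the remaining actin TPM in DKO and 34.9 ± 10.6% in WT, and Acta2 took 14.3 ± 2.54% in DKO and 3.52 ± 0.632% in WT (SD, n = 3 each).

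**Figure D3:**
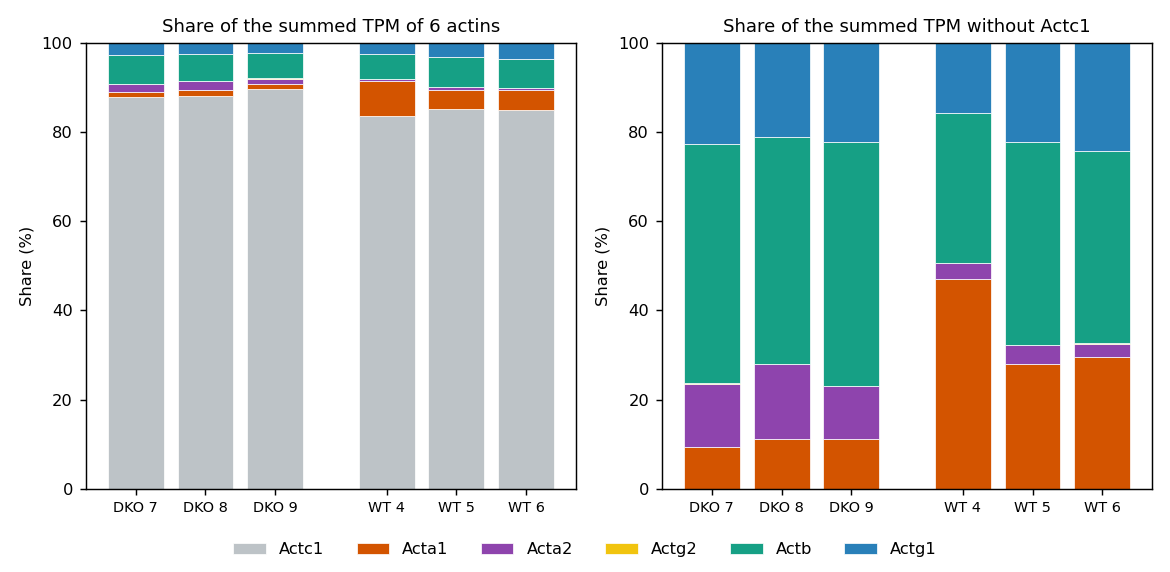
Makeup of the actin pool in each library, DKO libraries left of WT libraries, as a percent of the summed TPM of all 6 actins (left) and of the 5 other than Actc1 (right). The Acta1 segment is thinner in all DKO libraries (1.14% to 1.33% of the pool) than in all WT libraries (4.13% to 7.73%), and the Acta2 segment is thicker.

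Serum response factor (SRF), with cofactors such as myocardin, drives muscle actin genes through the CArG box, a site of CC, 6 bases that are each A or T, and GG. Windows upstream of Acta1, Actc1, Acta2 and Actg1 came from RefSeq (GRCm38.p6), and Actb and Actg2 are named only. The Acta2 window starts 212 bases inside the gene as annotated by RefSeq, not at its start, and was left out. The promoters of Acta1 (250 bases before the RefSeq start, chr8:123894776-123895025, minus strand) and Actc1 (238 of those 250 bases, chr2:114052888-114053125, minus strand) are shown because Acta1 was called and its sarcomeric partner was not. Capitals mark CArG boxes and CArG-like sites, which have 5 of the 6 core bases as A or T.
Acta1: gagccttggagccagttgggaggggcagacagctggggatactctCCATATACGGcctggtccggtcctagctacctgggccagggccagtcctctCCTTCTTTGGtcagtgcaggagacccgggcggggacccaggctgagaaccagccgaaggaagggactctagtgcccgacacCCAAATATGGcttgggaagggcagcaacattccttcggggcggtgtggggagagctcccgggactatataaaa
Actc1: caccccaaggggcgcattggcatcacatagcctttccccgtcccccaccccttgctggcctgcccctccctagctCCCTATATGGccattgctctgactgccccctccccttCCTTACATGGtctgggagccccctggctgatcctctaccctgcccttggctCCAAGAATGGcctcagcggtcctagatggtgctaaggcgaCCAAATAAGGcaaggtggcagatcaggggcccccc

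Both promoters hold 1 CArG box. It lies 73 to 64 bases before the start in Acta1 and 47 to 38 bases before it in Actc1. Acta1 has 2 CArG-like sites and Actc1 has 3. For Actg1 the site is shown with 10 flanking bases on each side, since GENCODE places 47 of its 250 upstream bases in exons. It lies at chr11:120348566-120348595 on the minus strand.
Actg1: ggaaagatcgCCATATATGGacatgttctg

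The Actg1 window had 1 CArG box, 90 to 81 bases before the start, and 0 CArG-like sites. Across 32851 RefSeq upstream windows of 250 bases, taken as the table gives them, 1.47% held a CArG box, 7.24% a CArG-like site and 0.670% at least 2 of either kind. The MCAT element CATTCC, sought on both strands, was found in Acta1 and in 12.6% of all windows. GGGCGG, the GC box, was found on either strand in Acta1 and Actg1 and in 32.7% of all windows. Acta1 also held TATATAA, overlapping TATAAA, 9 to 3 bases before the annotated start. All positions count from annotated starts, and whether transcription begins there in these hearts was not tested. CArG boxes thus lie upstream of the actin that fell and of 2 that were not called.

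**Figure D4:**
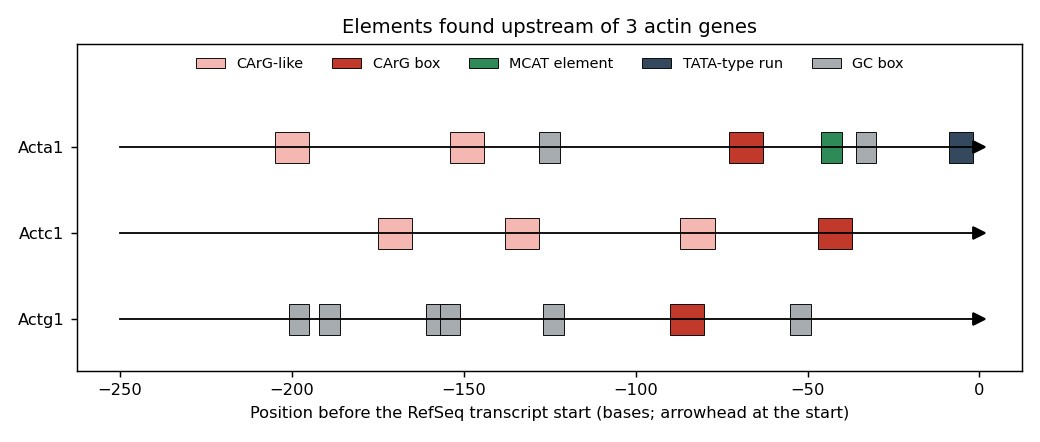
Elements within 250 bases before the RefSeq start of 3 actin genes, with position in bases and the start at the arrowhead. CArG boxes (dark red) lie 73, 47 and 90 bases before the start in Acta1, Actc1 and Actg1, and CArG-like sites (pale red) number 2 in Acta1 and 3 in Actc1.

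Among SRF and its cofactors, 2 of 16 genes rose and 0 fell, with a median log2 difference of 0.09 beside 0.03 over all genes tested. Counts in this and the later lists stand beside 10.7% of all genes tested called, 6.51% higher and 4.22% lower. In lists this short, a few calls cannot be told from that share. Myocardin (Myocd), the muscle cofactor of SRF, had 82.5, 104 and 97.0 TPM in DKO 7, 8 and 9, against 60.3, 68.3 and 50.4 TPM in WT 4, 5 and 6 (log2 difference 0.66; limma, BH adjusted p = 0.0278). The LIM protein gene Fhl2 rose to 2423 ± 104 TPM in DKO, against 1837 ± 146 TPM in WT (limma, BH adjusted p = 0.0246). Srf itself, named after its value was seen, had 52.8 ± 7.71 TPM in DKO and 49.9 ± 4.62 TPM in WT (limma, BH adjusted p = 0.744). Neither call held in every fit that left out 1 library. Without WT 4, DKO 8 or DKO 9, 0 genes of this list were called, and without DKO 7, WT 5 or WT 6, 1 was.

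Other SRF targets, of the cytoskeleton and the early response, gave 5 higher and 0 lower of 19 tested, with a median log2 difference of -0.02. The matricellular gene Ctgf rose to 216 ± 38.1 TPM in DKO, against 78.2 ± 30.4 TPM in WT (limma, BH adjusted p = 0.0172). The stress-responsive sarcomere gene Ankrd1 rose to 3431 ± 698 TPM in DKO, against 1424 ± 528 TPM in WT (limma, BH adjusted p = 0.0346), and the calponin Cnn2 to 63.9 ± 5.04 TPM, against 45.0 ± 3.88 TPM in WT (limma, BH adjusted p = 0.0232). The early-response members, named after their values were seen, were lower by mean in DKO and not called. Fos averaged 3.59 ± 2.14 TPM in DKO and 18.0 ± 22.6 TPM in WT, Egr1 13.7 ± 2.14 TPM in DKO and 44.7 ± 41.1 TPM in WT, and Junb 21.8 ± 3.29 TPM in DKO and 39.0 ± 31.4 TPM in WT (SD, n = 3 each), each with its highest WT value in WT 4. With 1 library left out, the count fell to between 0 (without DKO 8) and 3 (without WT 4 or WT 5); it was 1 without WT 6 or DKO 7 and 2 without DKO 9.

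Smooth muscle markers other than Acta2 were mostly not called. Of 15 contractile markers tested, 1 was higher and 1 lower, with a median log2 difference of -0.32. Transgelin (Tagln), an actin-binding protein of smooth muscle, fell to 21.4, 26.7 and 24.3 TPM in DKO 7, 8 and 9, against 51.2, 40.7 and 39.0 TPM in WT 4, 5 and 6 (log2 difference -0.83; limma, BH adjusted p = 0.0144). Every DKO library was below every WT library for Tagln, the opposite of Acta2. The gene that rose was Myocd, which cardiomyocytes also express and which is counted among the cofactors above. Its call held without WT 5 or without DKO 7 but not without WT 4, WT 6, DKO 8 or DKO 9. Smoothelin Smtn (92.7 ± 9.11 TPM in DKO, 116 ± 3.72 TPM in WT; limma, BH adjusted p = 0.0615) and the kinase gene Mylk (12.9 ± 0.480 TPM in DKO, 17.6 ± 2.03 TPM in WT; limma, BH adjusted p = 0.0664) were not called. Smtn was called lower under both other scalings and with abundant RNA classes left out (limma, BH adjusted p from 0.0222 to 0.0404), and in none of the other alternatives. Smooth muscle myosin Myh11, named after its value was seen, had 18.6 ± 3.50 TPM in DKO and 31.4 ± 7.45 TPM in WT (limma, BH adjusted p = 0.0670). The summed level of the 15 markers was 644 to 742 TPM in DKO and 667 to 784 TPM in WT, and 0 of them were at 0 in all libraries. The largest part of that sum was Ppp1r12b, named after its value was seen. It had 217 ± 12.7 TPM in DKO and 210 ± 21.5 TPM in WT (limma, BH adjusted p = 0.789). The sum therefore says little of low markers such as Tagln and Myh11. At an unadjusted limma p under 0.05 there were 6 of the 15, beside 3921 of the 14541 genes tested.

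Pericyte markers gave 0 higher and 2 lower of 10, with a median log2 difference of -0.28. The potassium channel gene Kcnj8 had 23.2 ± 0.720 TPM in DKO and 35.2 ± 3.54 TPM in WT (limma, BH adjusted p = 0.0163), and Higd1b 12.9 ± 1.94 TPM in DKO and 21.9 ± 1.88 TPM in WT (limma, BH adjusted p = 0.0221). With 1 library left out, the list had 2 calls without WT 4 or DKO 7, 1 without DKO 8 or DKO 9 and 0 without WT 5 or WT 6. The summed pericyte level was lower in DKO, at 583 to 664 TPM against 706 to 759 TPM in WT, while Acta2 was higher. Most of that sum was Rgs5, which had 397 ± 20.6 TPM in DKO and 457 ± 21.0 TPM in WT and was not called (limma, BH adjusted p = 0.104).

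Markers of activated fibroblasts, which also use Acta2, were mostly higher. Of 15 tested, 11 rose and 0 fell, with a median log2 difference of 1.43 beside 0.03 over all genes. The matrix gene Comp had 51.7, 71.5 and 66.1 TPM in DKO 7, 8 and 9, against 8.61, 5.74 and 8.00 TPM in WT 4, 5 and 6 (limma, BH adjusted p = 8.79e-04). Periostin (Postn), secreted by activated fibroblasts, had 154 ± 8.06 TPM in DKO and 36.9 ± 8.82 TPM in WT, and the fibroblast regulator Meox1 had 35.4 ± 2.35 TPM in DKO and 11.9 ± 2.35 TPM in WT (limma, BH adjusted p = 0.00227 and 0.00390). The matrix gene Cilp had 90.0 ± 2.60 TPM in DKO and 11.2 ± 5.08 TPM in WT. The 4 not called, named after their values were seen, were Cthrc1, Fn1, Ddah1 and Fap. Of these, Fap was lower by mean in DKO, at 3.98 ± 1.51 TPM against 4.86 ± 2.21 TPM in WT. The summed level of the list was 740 to 942 TPM in DKO and 232 to 347 TPM in WT. This list was drawn up with rises of several of its genes already known, so its count is a description, and its part in the Acta2 difference was not tested.

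**Figure D5:**
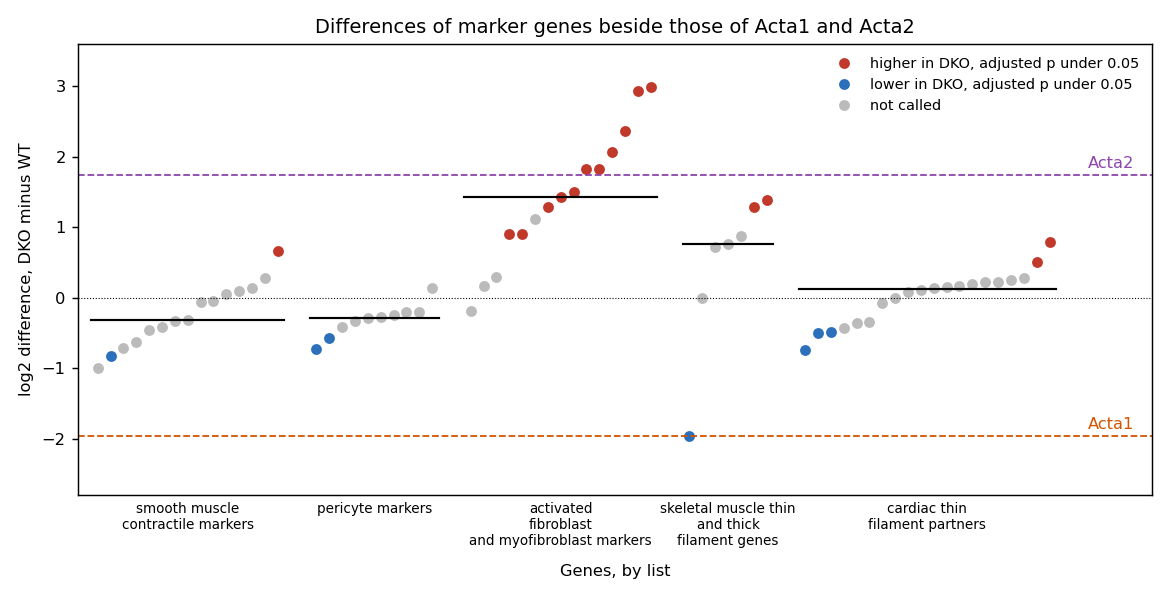
Log2 difference, DKO minus WT, of each tested gene in 5 lists, with black bars at list medians and dashed lines at Acta2 (1.73) and Acta1 (-1.97). Of 15 smooth muscle markers 1 rose and 1 fell, and of 15 activated fibroblast markers 11 rose.

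Skeletal muscle filament genes other than Acta1 went both ways. Of 16 such genes, 7 were tested, 2 rose and 1 fell, with a median log2 difference of 0.77. The light chain gene Myl1 had 191, 139 and 190 TPM in DKO 7, 8 and 9, against 81.3, 54.0 and 76.0 TPM in WT 4, 5 and 6 (limma, BH adjusted p = 0.0103). Slow skeletal troponin Tnnt1 had 35.8 ± 5.10 TPM in DKO and 13.5 ± 5.09 TPM in WT (limma, BH adjusted p = 0.0170), a call that was lost without DKO 8. Myosin-binding protein Mybpc2, of fast skeletal muscle, fell to 1.07, 4.38 and 2.23 TPM in DKO 7, 8 and 9, against 14.9, 8.72 and 12.9 TPM in WT 4, 5 and 6 (log2 difference -1.97; limma, BH adjusted p = 0.0219). Leaving out WT 4, WT 6 or DKO 9 ended that call. The summed level of the 16 genes was 204 to 249 TPM in DKO and 78.3 to 128 TPM in WT, and most of it was Myl1 in every library.

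Fetal and stress genes of the ventricle, the programme that Acta1 is usually counted in, gave 2 higher and 0 lower of 8 tested. Myh7, the slow myosin of the fetal rodent ventricle, had 1615, 1397 and 1396 TPM in DKO 7, 8 and 9, against 44.6, 49.3 and 235 TPM in WT 4, 5 and 6 (log2 difference 4.17; limma, BH adjusted p = 0.00960). Acta1 and Myh7 thus moved in opposite directions, and the other gene that rose was Ankrd1. The median log2 difference of the list was 0.28. The adult myosin Myh6 had 10492 ± 346 TPM in DKO and 12330 ± 800 TPM in WT and was not called (limma, BH adjusted p = 0.123). With 1 library left out, 3 genes were called without WT 4, 2 without WT 5 and 1 in each of the other fits.

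Proteins that share the cardiac thin filament with Actc1 divided by member, with 2 higher, 3 lower and 15 not called of 20, and a median log2 difference of 0.12. At an unadjusted limma p under 0.05 there were 13 of the 20, in both directions, beside 3921 of the 14541 genes tested. The leiomodins Lmod2 and Lmod3, which lengthen thin filaments at their pointed ends, fell. Lmod2 had 611, 590 and 555 TPM in DKO 7, 8 and 9, against 786, 847 and 827 TPM in WT 4, 5 and 6 (log2 difference -0.49; limma, BH adjusted p = 0.00772). Lmod3 had 60.9 ± 7.15 TPM in DKO and 102 ± 3.79 TPM in WT (limma, BH adjusted p = 0.00785). Nebulette (Nebl), a Z-disc actin-binding protein, rose to 269 ± 20.8 TPM in DKO, against 155 ± 15.0 TPM in WT (limma, BH adjusted p = 0.00622), and cardiac troponin I (Tnni3) fell to 5077 ± 102 TPM in DKO, against 7173 ± 254 TPM in WT (limma, BH adjusted p = 0.00777). The Tnni3 call was lost with quantile scaling (log2 difference -0.23; limma, BH adjusted p = 0.254).

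Of 18 genes that fold or modify actin, including the CCT chaperonin subunits, prefoldin and the actin histidine methyltransferase Setd3, 0 were called in either direction by limma. The median log2 difference was 0.09. At an unadjusted limma p under 0.05 there were 7 of them, beside 3921 of the 14541 genes tested across the table. Setd3 had 74.4 ± 2.18 TPM in DKO and 87.0 ± 4.13 TPM in WT (limma, BH adjusted p = 0.0820), and the chaperonin subunit Tcp1 165 ± 4.87 TPM in DKO and 140 ± 10.1 TPM in WT (limma, BH adjusted p = 0.0896).

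Genes of the actin monomer pool gave 2 higher and 1 lower of 15 tested, with a median log2 difference of 0.23. Destrin (Dstn), which severs filaments and releases monomers, had 487, 424 and 492 TPM in DKO 7, 8 and 9, against 156, 157 and 142 TPM in WT 4, 5 and 6 (log2 difference 1.61; limma, BH adjusted p = 5.49e-04). Dstn in DKO was 3.08 times the WT mean. The profilins, which load monomers onto filaments, split. Pfn1 rose to 283 ± 4.44 TPM in DKO, against 238 ± 6.59 TPM in WT (limma, BH adjusted p = 0.0330), a call lost without any 1 of the 6 libraries, while Pfn2 fell to 27.0 ± 2.15 TPM in DKO, against 44.6 ± 1.93 TPM in WT (limma, BH adjusted p = 0.00673). Actin-related and actin-like proteins gave 1 higher and 0 lower of 10 tested, with a median log2 difference of -0.01. The gene was the Arp2/3 subunit Actr3 (149 ± 4.70 TPM in DKO, 116 ± 3.36 TPM in WT; limma, BH adjusted p = 0.0161), whose call was lost without WT 4, DKO 8 or DKO 9. Actl6b, Actrt1, Actl7a and Actbl2 were listed at 0 in all 6 libraries.

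Across the 6 libraries, the genes with patterns most like each actin were found among 13080 candidates by the root mean square distance between log2(TPM + 1) values centred on each gene's mean. For Acta1 they were the nuclear receptor gene Nr4a3 (distance 0.20), the kinase gene Sbk2 (0.24) and the noncoding RNA Lhx1os (0.26). Nr4a3 had 1.52, 1.14 and 1.05 TPM in DKO 7, 8 and 9, against 15.8, 4.98 and 5.91 TPM in WT 4, 5 and 6, and Sbk2 had 3.15 ± 0.892 TPM in DKO and 18.5 ± 12.1 TPM in WT (SD, n = 3 each). Both had their highest value in WT 4, as Acta1 did, which the choice by likeness over these libraries favours. Lhx1os was listed at 0 in all DKO libraries and had 2.39 to 4.59 TPM in WT libraries. It passed the filter through the WT libraries alone, so its direction was fixed by that filter.

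For Acta2 the closest were the collagen genes Col8a2 (distance 0.16) and Col14a1 (0.20) and the LIM protein gene Pdlim3 (0.21). Col8a2 had 3.55, 4.64 and 3.15 TPM in DKO 7, 8 and 9, against 0.575, 0.493 and 0.402 TPM in WT 4, 5 and 6. It passed the filter through the DKO libraries alone, so its direction was fixed by that filter. Col14a1 had 41.8, 61.1 and 35.5 TPM in DKO 7, 8 and 9, against 12.1, 10.5 and 11.9 TPM in WT 4, 5 and 6. Among DKO libraries DKO 8 was highest and DKO 9 lowest, as for Acta2, which the choice by likeness again favours. For Actc1 they were Slfn5 (0.02), Cops7a (0.03) and Gata4 (0.03), for Actb Emc7 (0.02), Haus2 (0.03) and Tbca (0.03), and for Actg1 Cebpzos (0.05), Scarb2 (0.06) and Cdc26 (0.06). Genes with little spread are close to each other on this measure whatever their order of libraries.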

How the data were processed

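Total RNA from heart tissue was sequenced as strand-specific paired-end libraries (75 bases per read), per the labels. The authors deposited 1 table of TPM per gene and library, without pooling replicates. The submitters' processing notes name bcl2fastq, kallisto 0.44.0 and build mm10; the annotation and how transcripts were summed are not given there. Because TPM sums to a fixed total, a few abundant RNAs can shift all other values.

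Groups follow the titles. No label states whether each library is a different animal; p-values therefore reflect spread between libraries, which may be technical. The test was limma 3.58.1 (moderated linear models with a variance trend; R 4.3.3) on log2(TPM + 1), which understates changes of low genes, for those reaching 1 TPM in 3 or more libraries. P-values were adjusted by Benjamini-Hochberg across the whole table (threshold 0.05). The fit was also run on simulated data with 200 changed genes and independent noise. Those data held no sex difference and no doubtful label, so that run cannot speak to either. Shares and ratios were compared by exact two-sided permutation of 3 against 3 libraries. The members and gene lists were chosen with earlier results of these data known. Named genes are the 6 members, the 4 genes per list with the lowest p, from which the text takes those it describes, and the 3 genes nearest in pattern to each of 5 members; others are said to be named after their values were seen. Alternatives were another pseudocount, filter, scaling, weighting or variance model, a term for Y-linked transcripts, DKO 7 as WT, and each library left out.

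Coding sequences came from GENCODE M21 and upstream sequences from RefSeq (GRCm38), aligned and searched with biopython 1.88 in python 3.11.15; figures used matplotlib 3.10.9.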

Additional observations from a re-analysis of the deposited data

How the results depend on the processing

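Counting DKO 7 as WT, using the 4 libraries with Y-linked transcripts alone or adding a term for those transcripts changed most. Genes called numbered 1, 29 and 92 under these settings, against 1560, and 628 to 876 with 1 library left out. The log2 difference of Acta1 was -1.39, -2.06 and -2.06 and that of Acta2 1.26, 1.29 and 1.29, with neither called (limma, BH adjusted p from 0.108 to 0.516 and from 0.0728 to 0.507). Both kept their direction in all 18 alternatives and their call in 15, including each fit without 1 library. In the Y-linked libraries DKO 9 is the only DKO library, and its spread is assumed to be that of WT. The term gives the same log2 differences, because there too the DKO estimate rests on DKO 9 against WT. The Y-linked settings are therefore not separate results, and neither adjusts for sex across all DKO libraries. What else entered into the lost calls was not tested.

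Actg2 reversed to 0.15, 0.20 and 0.20. Under both Y-linked settings Actb reversed to -0.0213, Emc7 to -0.0153, Haus2 to -0.00937 and Tbca to -0.0211, and with quantile scaling the calcium pump gene Atp2a2 reversed to 0.0302, against -0.29 in the reported fit (not called), while 4 other settings called it lower (limma, BH adjusted p from 0.0232 to 0.0460). Between DKO 9 alone and the 3 WT libraries, the difference in share was 5.02 points for Actc1, 0.691 for Acta2 and 0.00171 for Actg2. With DKO 7 as WT it was 0.789 points for Acta2, and the log2 ratio differences were -1.58 for Acta1 to Actc1 and 1.23 for Acta2 to Actb. With Actc1 left out of the sum, the differences were -24.4 points for Acta1, 10.8 for Acta2, 12.3 for Actb and 1.27 for Actg1. Over the other 56 named genes, 841 of 997 fits kept direction and call, 139 lost the call, 10 gained it and 7 reversed.

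Activated fibroblast calls numbered 8 to 11 with 1 library left out, 1 in the Y-linked libraries alone and 0 with DKO 7 as WT. No paired analysis was possible because the groups share no replicate numbers. TPM gives no read depth, so no counting error can be attached to low genes such as Actg2.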
